A study of Mus musculus with 5 samples.

Results

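Forkhead (FOX) transcription factors share a winged-helix DNA-binding domain, and 38 genes of the family were examined for RING1B peaks in mouse embryonic fibroblasts (MEFs). The members were named by gene symbol and were found by symbol among 37252 genes that GENCODE vM1 annotates on chromosome X and the autosomes. A gene was assigned a peak when the peak overlapped its body or lay within 5000 bases of its start, by at least 1 base. RING1B, the catalytic subunit of Polycomb Repressive Complex 1 (PRC1), was immunoprecipitated from crosslinked, MNase-digested chromatin of MEFs and sequenced (ChIP-Seq). The lines compared were the parental MEFs, which carry floxed EED alleles and serve as the control, the same MEFs with a lentiviral human EZHIP transgene, and the same MEFs with a lentiviral H3.3K27M transgene. All 3 lines thus carried the floxed, undeleted EED alleles, and transgenes were expressed from an EF1a promoter vector with puromycin selection. The control label names no transgene, so transduction and selection cannot be told apart from the transgene in these comparisons. The series holds 5 samples, 1 library per group, and libraries of H3.3K27R cells and of an EED deletion line were not used here. With 1 library per group there is no replicate spread, so no comparison below carries a test, and each difference is between these libraries and their peak calls.

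Polycomb complexes keep developmental regulators silent in cell types where they are not used. PRC2 methylates histone H3 at lysine 27 (H3K27me3), and PRC1, which ubiquitinates histone H2A through RING1B, is recruited in part through that mark. EZHIP and H3.3K27M both inhibit PRC2, and the comparison addresses where RING1B is found once PRC2 is inhibited. Within the forkhead family, subfamilies A to F, H, I, L, Q and S together with Foxj1, Foxn1 and Foxn4 act mainly in restricted tissues of the embryo and are called developmental here (24 genes). Foxj2, Foxj3, Foxn2, Foxn3 and the K, M, O and P subfamilies include genes used in many cell types, such as Foxm1 in the cell cycle and Foxo1 in insulin and stress responses, and are called widely expressed (14 genes). The classes follow subfamilies, so Foxo6 and Foxp2, which are best known from the brain, stand with the widely expressed genes.

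The bases just before the gene start are shown for 5 members, since RING1B peaks lay over the first 3 of these starts in the control list and over neither of the others. Foxl2 and Foxb1 had peaks in all 3 lists, Foxd2 had a peak in the control list alone, and Foxj2 and Foxj3 had none. Each sequence is the 250 bases before the annotated start, read 5′ to 3′ along the gene's own strand from NCBIM37 (mm9), with every CG dinucleotide in capitals.
Foxl2 (chr9:98855776-98856025, plus strand): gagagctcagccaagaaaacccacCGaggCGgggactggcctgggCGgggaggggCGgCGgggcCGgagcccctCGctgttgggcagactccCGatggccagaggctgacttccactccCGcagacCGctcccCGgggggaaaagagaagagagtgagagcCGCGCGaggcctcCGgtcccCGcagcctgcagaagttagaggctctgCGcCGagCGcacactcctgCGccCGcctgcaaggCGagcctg
Foxb1 (chr9:69608748-69608997, minus strand): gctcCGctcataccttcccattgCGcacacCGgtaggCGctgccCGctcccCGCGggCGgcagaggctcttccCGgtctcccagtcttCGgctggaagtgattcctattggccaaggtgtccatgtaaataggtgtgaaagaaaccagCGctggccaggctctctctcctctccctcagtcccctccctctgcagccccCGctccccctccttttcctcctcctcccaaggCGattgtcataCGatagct
Foxd2 (chr4:114581504-114581753, minus strand): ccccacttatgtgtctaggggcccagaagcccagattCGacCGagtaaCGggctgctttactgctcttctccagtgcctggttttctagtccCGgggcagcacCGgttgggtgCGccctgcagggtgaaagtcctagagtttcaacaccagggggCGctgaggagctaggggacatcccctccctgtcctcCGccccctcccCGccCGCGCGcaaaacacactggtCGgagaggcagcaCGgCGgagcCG
Foxj2 (chr6:122769682-122769931, plus strand): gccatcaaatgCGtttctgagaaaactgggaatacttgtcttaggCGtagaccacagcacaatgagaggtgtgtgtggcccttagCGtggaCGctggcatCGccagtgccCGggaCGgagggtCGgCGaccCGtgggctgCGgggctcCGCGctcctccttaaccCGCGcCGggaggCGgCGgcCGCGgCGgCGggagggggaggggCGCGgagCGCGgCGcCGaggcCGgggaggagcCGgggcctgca
Foxj3 (chr4:119212016-119212265, plus strand): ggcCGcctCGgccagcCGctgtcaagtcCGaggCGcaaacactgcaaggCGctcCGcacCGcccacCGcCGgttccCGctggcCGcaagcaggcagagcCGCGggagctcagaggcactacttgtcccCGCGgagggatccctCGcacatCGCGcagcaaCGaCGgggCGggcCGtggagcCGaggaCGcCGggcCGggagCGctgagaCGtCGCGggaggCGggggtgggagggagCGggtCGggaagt
These windows hold 22 CG dinucleotides for Foxl2, 14 for Foxb1, 16 for Foxd2, 30 for Foxj2 and 34 for Foxj3. CG reads the same on both strands. Across protein-coding genes, the median count in this window was 8, and 92.5% of the windows held at least 1. In this window Foxj2 and Foxj3, which had no peak, held more CG than the 3 members with a peak. Over the 1000 bases on either side of the start the order differed, with observed to expected CpG ratios of 0.601 for Foxj2, 0.848 for Foxj3, 0.826 for Foxl2, 0.721 for Foxb1 and 0.833 for Foxd2. The RefSeq start of Foxj2 lies 270 bases downstream of the annotated start used here, so its window does not directly precede the RefSeq start.

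RING1B peaks were found at many developmental forkhead genes and at a single widely expressed one. In the control list, 15 of the 38 members (39.5%) had a peak, against 3.81% of the 22350 protein-coding genes and 3.16% of all annotated genes under the same rule. By class, 14 of the 24 developmental members (58.3%) and 1 of the 14 widely expressed members (7.14%), Foxo6, had a control peak. The widely expressed count was 0 among the 286 widest peaks of each list, and 0 of 12 when Foxo6 and Foxp2 were counted as developmental. The EZHIP list had a peak at 8 members (21.1%), against 1.32% of protein-coding genes, and the H3.3K27M list at 11 members (28.9%), against 1.21% of protein-coding genes. All of these were developmental genes, 8 of 24 (33.3%) for EZHIP and 11 of 24 (45.8%) for H3.3K27M. The widely expressed members had the larger search space, with 1760.3 kb of gene bodies and start windows against 285 kb for the developmental members. The single pseudogene-annotated member, Foxl1, had no peak.

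**Figure D1:**
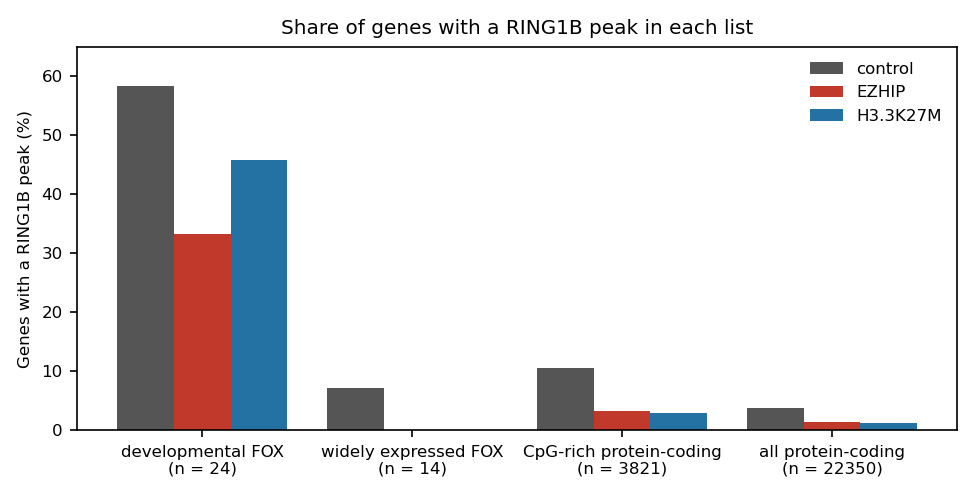
Percent of genes with a RING1B peak over the gene body or within 5000 bases of the start, for developmental and widely expressed forkhead (FOX) genes, protein-coding genes with a CpG-rich start and all protein-coding genes, with 1 bar per peak list. The developmental forkhead bars reach 58.3, 33.3 and 45.8%, whereas all protein-coding genes stay at 3.81% or less.

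The 3 lists were nested at these genes. Every member with an EZHIP peak also had an H3.3K27M peak, and every member with an H3.3K27M peak also had a control peak. Foxa1, Foxb1, Foxb2, Foxd1, Foxd3, Foxd4, Foxe1 and Foxl2 had a peak in all 3 lists. Foxa2, Foxf1 and Foxf2 had a peak in the control and H3.3K27M lists, and Foxd2, Foxe3, Foxo6 and Foxq1 in the control list alone. No member gained a peak without a control peak, an event found for 0.219% of protein-coding genes that lack a control peak. Among the 15 members with a control peak, 8 thus kept a peak with EZHIP and 11 with H3.3K27M. Among the 851 protein-coding genes with a control peak, 29.3% had an EZHIP peak, 28.6% an H3.3K27M peak, 20.1% both and 62.3% neither. Of protein-coding genes with a control and an EZHIP peak, 68.7% had an H3.3K27M peak, where all 8 such forkhead genes did. Conversely, 70.4% of those with a control and an H3.3K27M peak had an EZHIP peak, against 8 of 11 forkhead genes.

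Forkhead genes carried wide control peaks. Their widths ran from 1999 bases at Foxe3 to 27399 bases at Foxa2, with a median of 16399 bases and quartiles of 9599 and 19599 bases. For all 851 protein-coding genes with a control peak, the median summed width was 3999 bases, with quartiles of 1999 and 10399 bases. Peaks of 10000 bases or more were found at 10 of the 15 forkhead genes and made up 19.4% of the 821 control peaks. No peak was shared between 2 members in any list, so each value below comes from a separate peak.

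Wide control peaks overlapped a peak of the other lists more often than narrow ones, as in the whole list. A wider peak also offers more bases for such an overlap, and the part of this was not tested. Of the 10 member peaks of 10000 bases or more in the control, 8 overlapped an EZHIP peak and 10 an H3.3K27M peak anywhere along their length. Over all control peaks of that size the shares were 73.6% and 83%. Of the 5 narrower member peaks, 1 overlapped an EZHIP peak and 2 an H3.3K27M peak, against 15.9% and 14.4% of all narrower control peaks. The wide member peaks therefore stood near the shares of control peaks of their size, and the number of narrow peaks is too small to place.

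**Figure D2:**
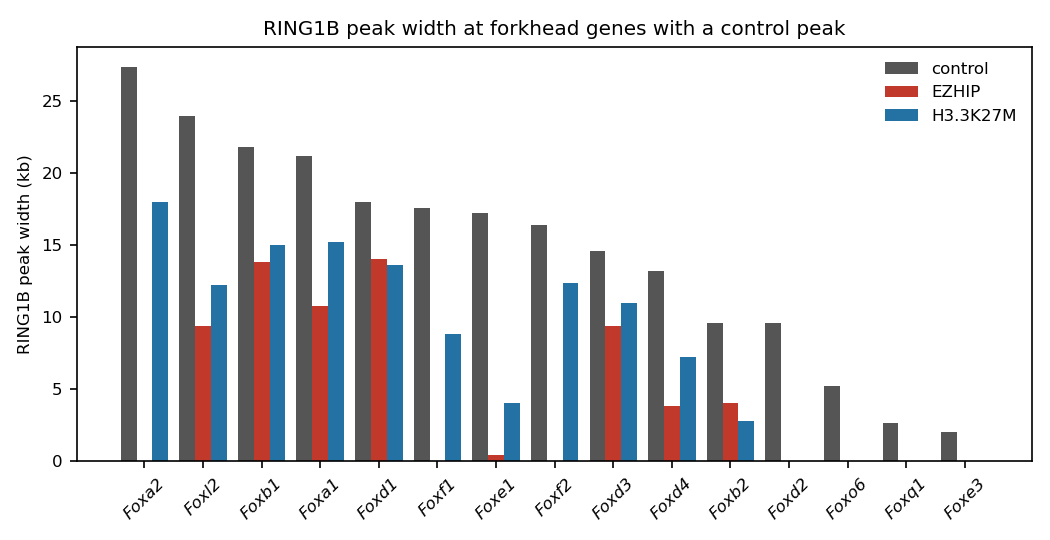
RING1B peak width in kb (vertical axis) at the 15 forkhead genes with a control peak, ordered by control width, with 1 bar per library and no bar where no peak met the rule. The grey control bar is the tallest at every gene, and the 4 genes with a control bar alone have control widths of 9599 bases or less.

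Foxa2 and Foxa1 encode pioneer factors of the endoderm. Foxa2, which specifies floor plate and endoderm, had the widest control peak of the family, 27399 bases, at chromosome 2, 147849001 to 147876399 (mm9), and an H3.3K27M peak of 17999 bases. No EZHIP peak met the rule at Foxa2, but an EZHIP peak of 1999 bases lay inside the control peak, 14306 bases from the gene start. Foxa1, its close paralog, had a control peak of 21199 bases at chromosome 12, 58634801 to 58655999. The EZHIP peak there spanned 10799 bases and the H3.3K27M peak 15199 bases. The retained EZHIP peak at Foxa1 reached only 291 bases upstream of the start, where the control peak reached 8891 bases upstream. Foxa3, the third member of the subfamily and a liver factor, had no peak in any list, and its closest control peak lay 11809114 bases away.

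Foxb1, Foxb2 and Foxd3, which act in the nervous system and neural crest, kept peaks in all 3 lists. Foxb1, expressed in the developing neural tube and hypothalamus, had a control peak of 21799 bases at chromosome 9, 69600801 to 69622599. With EZHIP the peak spanned 13799 bases and with H3.3K27M 14999 bases. Foxb2 on chromosome 19, 16943601 to 16953199, spanned 9599, 3999 and 2799 bases in the same order. It was thus wider in the EZHIP than in the H3.3K27M list, which was the less common order. Foxd3, a regulator of neural crest and pluripotent cells, spanned 14599 bases in the control list at chromosome 4, 99315801 to 99330399. Its EZHIP and H3.3K27M peaks spanned 9399 and 10999 bases, and all 3 covered the whole single-exon gene with several kilobases on either side.

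The D subfamily did not behave as a block. Foxd1, a marker of kidney stroma, had a control peak of 17999 bases, with 13999 bases left under an EZHIP peak and 13599 under an H3.3K27M peak, at chromosome 13, 99120601 to 99138599. It kept the largest share of its control width in the EZHIP list, 0.778 times. Foxd4, at chromosome 19, 24966001 to 24979199, had peaks of 13199, 3799 and 7199 bases in the same order. Its EZHIP peak began 200 bases downstream of the gene start and so left the start itself uncovered. Foxd2, at chromosome 4, 114572601 to 114582199, had a control peak of 9599 bases, the same width as that of Foxb2, but no peak by the rule in either transduced line. An H3.3K27M peak of 3399 bases lay within the Foxd2 control peak at 5104 bases from the start, just outside the 5000-base limit. The member peak farthest from its start that still met the rule was the EZHIP peak at Foxe1, 2920 bases away. With the limit at 10000 bases, Foxd2 joined the H3.3K27M list, which then had 12 members with a peak, and 3 members had a control peak alone.

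Foxe1 and Foxl2 lost much of their width. Foxe1, which is required for thyroid development, had a control peak of 17199 bases at chromosome 4, 46347401 to 46364599. Its EZHIP peak spanned 399 bases and lay past the 3′ end of the gene, at 0.0232 times the control width, the smallest ratio of the family. The H3.3K27M peak of Foxe1 spanned 3999 bases, from 720 to 4718 bases downstream of the start, and so missed the start as well. Foxl2, the granulosa cell factor of the ovary, had a control peak of 23999 bases at chromosome 9, 98852201 to 98876199. Its EZHIP peak spanned 9399 bases and its H3.3K27M peak 12199 bases. Both transduced lists retained the part over the gene and the start of the lincRNA gene Foxl2os and had no peak over the distal 11200 and 11400 bases, respectively.

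Foxf1 and Foxf2, which act in gut and lung mesenchyme, had peaks in the control and H3.3K27M lists and none in the EZHIP list. Foxf1, named Foxf1a in the annotation, had a control peak of 17599 bases at chromosome 8, 123597601 to 123615199. Its H3.3K27M peak of 8799 bases lay wholly upstream of the start, from 9485 to 687 bases before it, and covered the start of 1110050K14Rik but none of the Foxf1 gene body. Foxf2, at chromosome 13, 31704601 to 31720999, spanned 16399 bases in the control and 12399 bases in the H3.3K27M list. That peak also extended mainly upstream, to 11684 bases before the start and 714 bases after it. The closest EZHIP peak was 198287 bases from the start of Foxf1 and 5107116 bases from that of Foxf2.

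Besides Foxd2, with its control peak of 9599 bases, the members with a control peak alone were Foxo6, Foxq1 and Foxe3. Among the 286 widest peaks of each list, Foxd2 was the only member left with a control peak alone, so that count fell from 4 to 1. Foxo6, a brain-expressed member of the O subfamily, had a control peak of 5199 bases at chromosome 4, 119955201 to 119960399, of which 91.4% lay within the gene body. Foxq1, a factor of hair and stomach differentiation, had a control peak of 2599 bases at chromosome 13, 31649401 to 31651999. Foxe3, a lens factor, had a control peak of 1999 bases at chromosome 4, 114596201 to 114598199, which began 458 bases downstream of the start. At these 3 genes no EZHIP or H3.3K27M peak overlapped any base of the control peak.

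**Figure D3:**
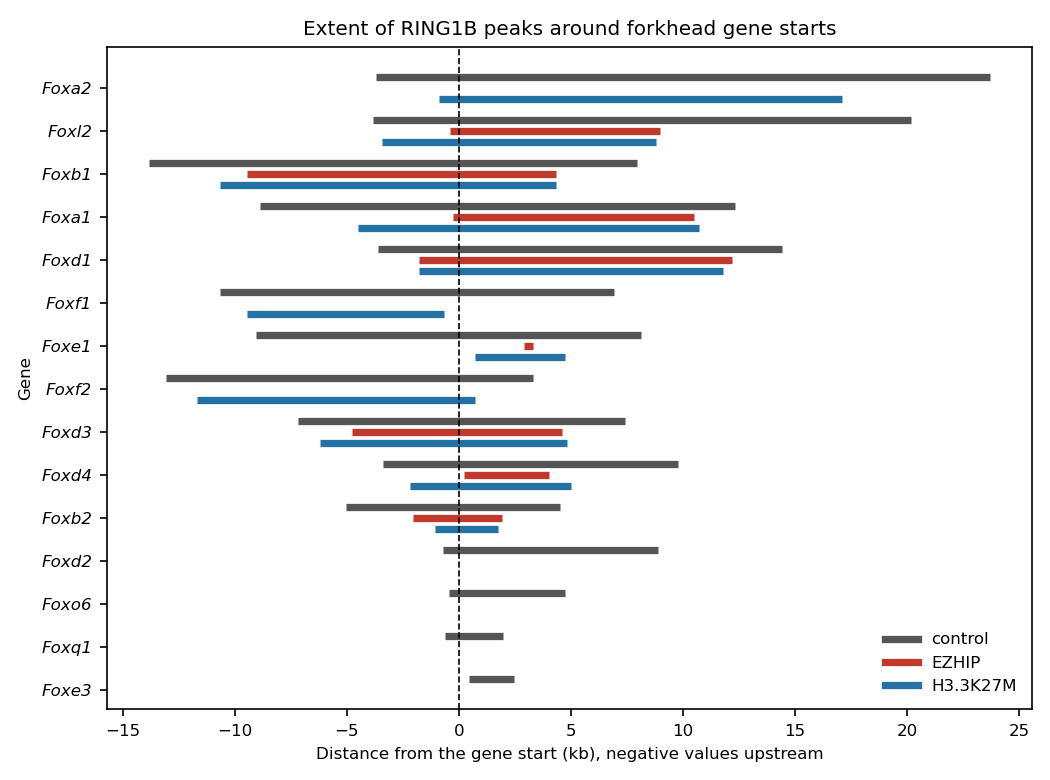
Extent of each RING1B peak that met the rule, in kb from the gene start along the gene's strand (horizontal axis), for 15 forkhead genes in the 3 lists, with the dashed line at the start. The EZHIP and H3.3K27M bars lie within the grey control bars at every gene, and the H3.3K27M bars of Foxf1 and Foxe1 and the EZHIP bars of Foxd4 and Foxe1 do not reach the line.

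Where a peak was retained it was narrower than in the control. The EZHIP to control ratio of width had a median of 0.463 over 8 members, with quartiles of 0.366 and 0.636 and a maximum of 0.778. The H3.3K27M to control ratio had a median of 0.657 over 11 members, with quartiles of 0.504 and 0.735 and a maximum of 0.756. All 8 EZHIP and all 11 H3.3K27M ratios were under 1, against 91.2% and 90.5% of protein-coding genes with a peak in both lists. The medians over those protein-coding genes were 0.405 (249 genes) and 0.645 (243 genes), so the forkhead medians were near those of genes in general. Control widths were not matched in this comparison, and a peak that touches several protein-coding genes counts for each of them. Among the 8 members in all 3 lists, the H3.3K27M peak was wider than the EZHIP peak at 6 and narrower at Foxb2 and Foxd1.

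Each retained peak lay inside the control peak, at 8 of 8 members for EZHIP and 11 of 11 for H3.3K27M. Among protein-coding genes with a single peak in each list, 86.4% of EZHIP and 87.7% of H3.3K27M peaks did so. The EZHIP peaks lay mostly within the H3.3K27M peaks, and less so the reverse. At Foxa1, Foxb1, Foxd3, Foxd4 and Foxe1, 100% of the EZHIP peak was covered by the H3.3K27M peak, and at Foxd1, Foxl2 and Foxb2 the shares were 97.1%, 97.9% and 70.0%. In the opposite direction, the EZHIP peak covered from 9.98% of the H3.3K27M bases at Foxe1 and 52.8% at Foxd4 to 100% at Foxb2 and Foxd1. At Foxa2, Foxf1 and Foxf2 the H3.3K27M peak had no EZHIP counterpart by the rule.

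Bases were lost from both edges of the control peak at every member that kept a peak. At some members this reached the gene body. None of it lay under the EZHIP peak at Foxe1 or the H3.3K27M peak at Foxf1. The EZHIP peak covered 91.5% of the Foxd4 body, where the control peak covered 100%. The H3.3K27M peak covered 74.3% of the Foxe1 body, where the control peak covered 100%, and 12.8% of the Foxf2 body, where the control peak covered 59.3%. In the EZHIP list the upstream edge moved inward by a median of 3500 bases and the downstream edge by 3200 bases, with more lost upstream at 4 members and more lost downstream at 4. In the H3.3K27M list the medians were 1800 bases upstream and 3400 bases downstream, with more lost downstream at 8 of 11 members. Over all protein-coding genes with such nested peaks, more was lost downstream at 53.3% for EZHIP and 55% for H3.3K27M. The start itself lay under the peak at 14 of 15 members in the control, 6 of 8 in the EZHIP and 9 of 11 in the H3.3K27M list. Among protein-coding genes with a peak in the control and the list concerned, the shares were 74.1%, 45.8% and 65.8%.

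Several forkhead genes are neighbours, and peaks stopped short of some of them. On chromosome 8, Foxf1 was followed by Foxc2 at 31785 bases and by Foxl1 at 43554 bases, and the control peak ended 6913 bases past the Foxf1 start. Foxc2, a factor of lymphatic vessels and mesenchyme, and Foxl1, a gut mesenchyme factor, had no peak in any list and lay 24872 and 36641 bases from the closest control peak. On chromosome 13, Foxq1 and Foxf2 had control peaks, whereas Foxc1, the paralog of Foxc2, lay 177516 bases from the closest control peak. On chromosome 4, Foxe3 and Foxd2 started 17154 bases apart and had separate control peaks of 1999 and 9599 bases.

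**Figure D4:**
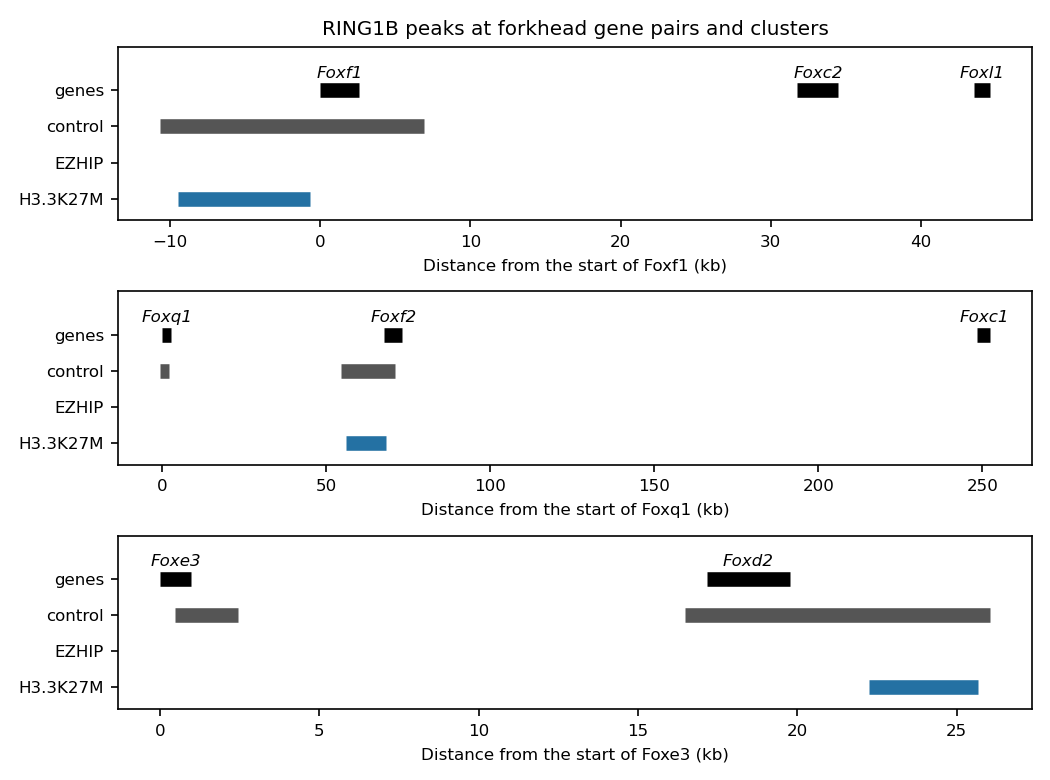
RING1B peaks at 3 groups of neighbouring forkhead genes, in kb from the start of the first gene along its strand (horizontal axes), with genes in black and a row per list. Foxc2, Foxl1 and Foxc1 have no peak in any row, and no EZHIP peak appears in these windows.

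Peaks also covered starts of other annotated transcripts. This was so for 9 of the 15 control peaks, 3 of 8 peaks with EZHIP and 7 of 11 with H3.3K27M. Examples are 9030622O22Rik beside Foxa2, B230323A14Rik beside Foxb1, Gm12688 beside Foxd3 and A530084C06Rik beside Foxq1. The position of a peak alone does not assign it to a forkhead gene rather than to such a neighbour. The gene body made up a median of 16.3% of the control peak, and 11 of the 15 control peaks covered the whole gene.

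The members without a control peak numbered 23. The developmental ones were Foxa3, Foxc1, Foxc2, Foxh1, Foxi1, Foxj1, Foxl1, Foxn1, Foxn4 and Foxs1, among them Foxh1, a Nodal pathway factor, Foxj1, the regulator of motile cilia, and Foxn1, the thymic epithelium factor. The widely expressed ones were Foxj2, Foxj3, Foxk1, Foxk2, Foxm1, Foxn2, Foxn3, Foxo1, Foxo3, Foxo4, Foxp1, Foxp2 and Foxp4. None of the 23 had a peak in the EZHIP or H3.3K27M list. The closest control peak to any of their starts was 18657 bases away, at Foxs1. Foxp2 and Foxp1, with bodies of 540629 and 341195 bases, held no peak anywhere along their length.

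CpG content, which the assignment did not use, was measured at each start. A start was called CpG-rich when the 1000 bases on either side had a GC content of at least 55% and a CpG ratio (observed over expected) of at least 0.65, as 17.1% of protein-coding genes did. Among the 15 members with a control peak, 13 had a CpG-rich start, with a median ratio of 0.793. Foxa2 and Foxd4 were the exceptions, at ratios of 0.614 and 0.580. Among the 10 developmental members without a control peak, 4 had a CpG-rich start (Foxa3, Foxc1, Foxc2 and Foxl1), with a median ratio of 0.585. Among the 13 widely expressed members without a control peak, 8 had a CpG-rich start, with a median ratio of 0.759. A CpG-rich start was therefore common in widely expressed members that had no RING1B peak.

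Peaks were also counted among the CpG-rich members of each class. Whether CpG content or gene length has a part in the class difference was not tested. In the control list, 12 of the 16 CpG-rich developmental members (75%) and 1 of the 9 CpG-rich widely expressed members (11.1%) had a peak, against 10.5% of the 3821 CpG-rich protein-coding genes. Of the 16 CpG-rich developmental members, 7 had an EZHIP peak (43.8%) and 9 an H3.3K27M peak (56.2%), against 3.22% and 2.96% of CpG-rich protein-coding genes. The members with a control peak had a median length of 2619 bases and a single exon in 9 of 15. The 10 developmental members without a control peak had a median length of 3871 bases and a single exon in 3. The widely expressed members without a peak had a median length of 60518 bases and none had a single exon. Gene length also sets the space searched for a peak, since the rule includes the gene body. The annotated start is the 5′-most of a gene, so the CpG content of genes with several starts, such as Foxp1, was measured at that start only.

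**Figure D5:**
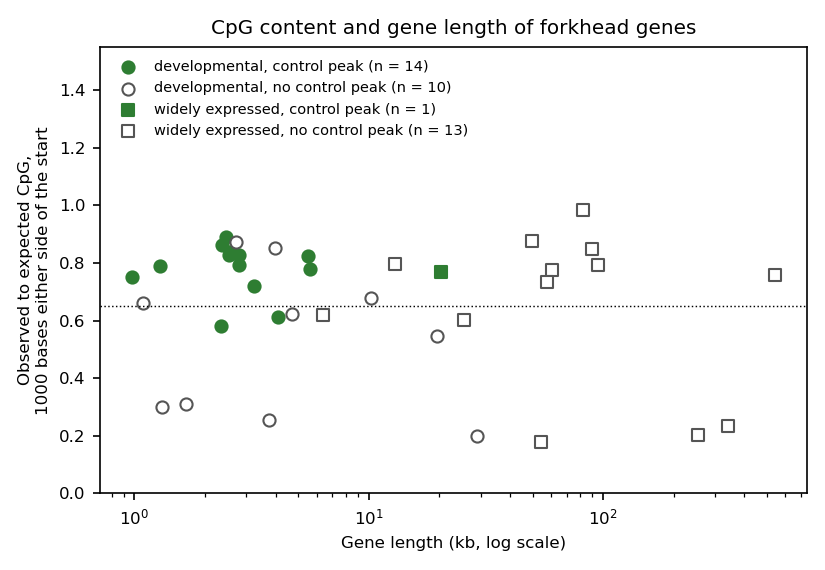
Observed to expected CpG ratio within 1000 bases of the start (vertical axis) against gene length in kb (log axis) for 38 forkhead genes, with filled symbols for a control RING1B peak, circles for developmental and squares for widely expressed genes, and a dotted line at 0.65. Filled circles gather at short genes with ratios from 0.580 to 0.891, while open squares reach the same ratios at longer genes.

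CpG content was compared between the retained and lost parts of control peaks. Of the 9 member peaks that an EZHIP peak overlapped in part, 7 had more CpG per 100 bases in the retained than in the lost part, with medians of 4.07 and 2.25. Over all 217 such control peaks the share was 55.3%, with medians of 3.19 and 2.81. For H3.3K27M it was 10 of 12 member peaks, with medians of 3.71 and 2.42, against 76.8% of 220 control peaks with medians of 3.54 and 2.02, so the forkhead peaks stood near control peaks in general. At Foxd4 the part retained in the EZHIP list held 5.58 CpG per 100 bases and the lost part 0.883. At Foxb2 the part retained in the H3.3K27M list held 6.90 CpG per 100 bases and the lost part 2.79. The exceptions were the EZHIP peaks at Foxe1 (0.501 retained, 3.10 lost) and in the Foxa2 control peak (1.10 and 2.31), and the H3.3K27M peaks at Foxf1 (3.40 and 4.10) and Foxd2 (4.06 and 4.58).

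Other families of developmental transcription factors were counted by the same rule. Control peaks were found at 5 of 19 SOX genes (26.3%), 5 of 17 T-box genes (29.4%) and 6 of 9 PAX genes (66.7%), against 39.5% of the forkhead genes. EZHIP peaks were found at 2 SOX, 2 T-box and 4 PAX genes, and H3.3K27M peaks at 3, 2 and 4. The hedgehog pathway, in which several forkhead genes act as targets or partners, was counted over 11 genes. A control peak was found at 3 (27.3%), an EZHIP peak at 1 and an H3.3K27M peak at 1 (9.09% each). The EZHIP and H3.3K27M peaks lay at genes without a control peak. Shares of protein-coding genes were 3.81%, 1.32% and 1.21% in the same order. The lists hold no expression values, so the labelled cell type could not be checked by RNA. Of 10 fibroblast marker genes, such as Col1a1, Vim and Thy1, 1 had a control peak (Pdgfra, 10%, against 3.81% of protein-coding genes). Pdgfra also had an EZHIP peak, and no marker had an H3.3K27M peak.

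The libraries differed in ways that touch these counts. Peak numbers were 821 for the control, 311 for EZHIP and 286 for H3.3K27M. The study itself reported no change in the number or general distribution of the PRC1 subunits RING1B and CBX2 with either transgene. The sizes of the lists used here differ from that statement, and the reason was not tested. No control peak was narrower than 1199 bases, while both other lists went down to 399 bases, and the EZHIP peak at Foxe1 was narrower than any control peak. With a common minimum of 1000 bases, 7 rather than 8 members had an EZHIP peak, and with a minimum of 5000 bases 5 had an EZHIP peak and the same number had a peak in all 3 lists. Sequencing depth is unknown, and a missing peak may lie below what a library could detect. Both transduced lists hold peaks below the minimum size in the methods, so the calling settings used for each list are not known. The part of depth or of calling settings in the differences between lists was not tested.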

How the data were processed

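RING1B ChIP-Seq peak lists of control, EZHIP and H3.3K27M MEFs were used, with groups taken from the cell type label. Per the study's methods, the authors aligned reads to mm9 and a spike-in genome with bowtie1 (Bowtie 1.0.0 in the submitters' processing notes) and called broad peaks per library with MOSAiCS-HMM, a hidden Markov model caller. The deposited lists give chromosome, start and end, in bins of 200 bases, with no score, signal or read count, so depth is unknown. Width was end minus start, and positions are printed 1-based. The member peak widths are each 1 base short of a multiple of 200, the pattern that inclusive ends give. Widths and printed ends would then be 1 base larger. Some EZHIP and H3.3K27M peaks are narrower than the minimum size in the methods.

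Genes came from GENCODE vM1 and sequence from NCBIM37, the assembly behind mm9. Foxf1 was matched through its older symbol Foxf1a. Peaks were assigned in Python 3.11.15 with pandas 2.3.3 and numpy 2.4.6, by code checked on genes with known overlaps, and plotted with matplotlib 3.10.9. Shares are set beside those of protein-coding genes under the same rule. With 1 library per group no test was made. Every member with a peak was named. Sequences were shown for the 2 members in all lists with the widest control peaks, the widest control-only member and the first 2 widely expressed members without a peak. The members, classes and lists were chosen with earlier results of these data known. Alternatives covered gene assignment, minimum width, equal peak numbers, merging, class and width definition. The 500-base composition window and the 1000-base minimum for retained and lost parts were chosen after the data were examined, as was the comparison of CpG in those parts.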

Additional observations from a re-analysis of the deposited data

How the results depend on the processing

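Counts and ratios were taken as changed when they moved by more than 1.5 times. The 12 values were recomputed under 13 alternatives, giving 81 recomputed values, of which 76 stayed within this limit, 5 moved and 0 changed direction. With a common minimum width of 5000 bases, 5 members had an EZHIP peak and 5 had a peak in all 3 lists, because the narrow EZHIP peaks at Foxb2, Foxd4 and Foxe1 drop out. With the 286 widest peaks of each list, 1 member (Foxd2) had a control peak alone and 0 widely expressed members had a control peak, since fewer narrow control peaks enter. With Foxo6 and Foxp2 counted as developmental, 0 of the 12 remaining widely expressed members had a control peak. The median width ratios stayed under 1 in each alternative run for them, the widest shift being to 0.633 for EZHIP with the 5000-base minimum and to 0.767 for H3.3K27M with bases counted within 10000 bases of the start. A CpG-rich start was found for 27 rather than 25 members with a 500-base window. No paired analysis was possible because each group holds 1 library. The lists hold no depth, so a peak absent from a list may have been under its detection limit.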
